A study of Mus musculus with 12 samples.

Results

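The 37 genes of human mitochondrial DNA (mtDNA) were followed through tumors grown from 2 pancreatic cancer lines, with and without arsenic trioxide (ATO). Members were chosen by name and identifier and not by a measured value, though earlier results of these data were known. They comprise 13 protein genes, 2 ribosomal RNA (rRNA) genes and 22 transfer RNA (tRNA) genes. The table of AsPC-1 tumors listed 36 of the 37 among its 26820 genes, and MT-TF (ENSG00000210049) was not listed. The table of BxPC-3 tumors listed 34 of the 37 among its 27457 genes, and MT-TF, MT-TQ (ENSG00000210107) and MT-TS1 (ENSG00000210151) were not listed. Both tables hold genes with a value above 0 in at least 4 of their 6 libraries.

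The tumors came from mice carrying orthotopic grafts, that is, grafts placed in the organ of origin, of AsPC-1 or BxPC-3 cells, which are human pancreatic ductal adenocarcinoma cells. The groups compared were 3 AsPC-1 ATO and 3 AsPC-1 control libraries, and 3 BxPC-3 ATO and 2 BxPC-3 control libraries, all with the genotype label WT. The library labelled BxPC-3 control 3 was left out of every group because its profile resembles AsPC-1, and its values are given on their own. The dose and schedule of ATO, the treatment of control mice, and the strain and age of the hosts were not found in the sources used here. The organism label is mouse, and how reads from mouse cells in the tumors were handled is not given. Nothing in the labels says that replicates were separate animals, and the p-values therefore describe library-to-library spread, which may be technical. In bulk tumor RNA, fewer cells of a type and less RNA per cell cannot be told apart.

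Mitochondrial DNA is a small circle whose strands are both transcribed as long precursors, one from the heavy-strand promoter and one from the light-strand promoter. Most protein and rRNA genes are flanked by tRNA genes, and excision of the tRNAs releases the RNAs between them. The proteins are core subunits of respiratory complexes I, III and IV and of the ATP synthase, called complex V, whose other subunits are encoded in the nucleus. The rRNAs and tRNAs serve the translation of these proteins inside the organelle. Arsenic is known to bind protein thiols, and mitochondria are among its known targets in tumor cells.

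Values are FPKM, that is, fragments per kilobase of gene length, scaled by a constant of each library, so levels of different genes are compared per length. The 12 genes with the highest FPKM were mtDNA genes in all 12 libraries, and 17 or 18 of the first 20 were. MT-CO1 led in 10 of the 12 libraries and took 2.49% to 8.36% of all reads. Whole read numbers could be recovered from the FPKM values, and the libraries held 11237813 to 19348970 reads. The constant that turns reads into FPKM followed the reads outside mtDNA. Those reads were 71.0% to 76.7% of the read total that the constant implies in the 6 AsPC-1 libraries and 65.0% to 66.5% in the 5 BxPC-3 libraries, while all reads were 86.5% to 118% and 72.8% to 84.6% of it. The FPKM of an mtDNA gene is thus close to a ratio to the reads of genes outside mtDNA, and shares of all reads are given beside it.

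The share of reads from mtDNA genes was higher with ATO in AsPC-1 tumors and lower on average, with overlap, in BxPC-3 tumors. It was 31.7, 35.2 and 33.9% in AsPC-1 ATO libraries, against 15.2, 17.2 and 20.1% in AsPC-1 control libraries. Means were 33.6% ± 1.80 in AsPC-1 ATO libraries and 17.5% ± 2.43 in AsPC-1 control libraries (SD, n = 3 each), a difference of 16.1 percentage points that is larger than the SD of either group. In BxPC-3 tumors the share was 16.2, 10.7 and 10.05% in ATO libraries, against 22.2 and 14.4% in control libraries. BxPC-3 ATO replicate 1 lay between the controls, and the other two ATO libraries lay below both. The difference of -5.92 percentage points was close to the SD of the controls, 5.51 points (n = 2), so it does not stand clear of the spread. It was -2.03 points without control replicate 1 and -9.81 points without control replicate 2. The 95% Wilson intervals of these shares reached at most 0.0248 points to either side and cover counting error only. No test was made of these sums.

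**Figure D1:**
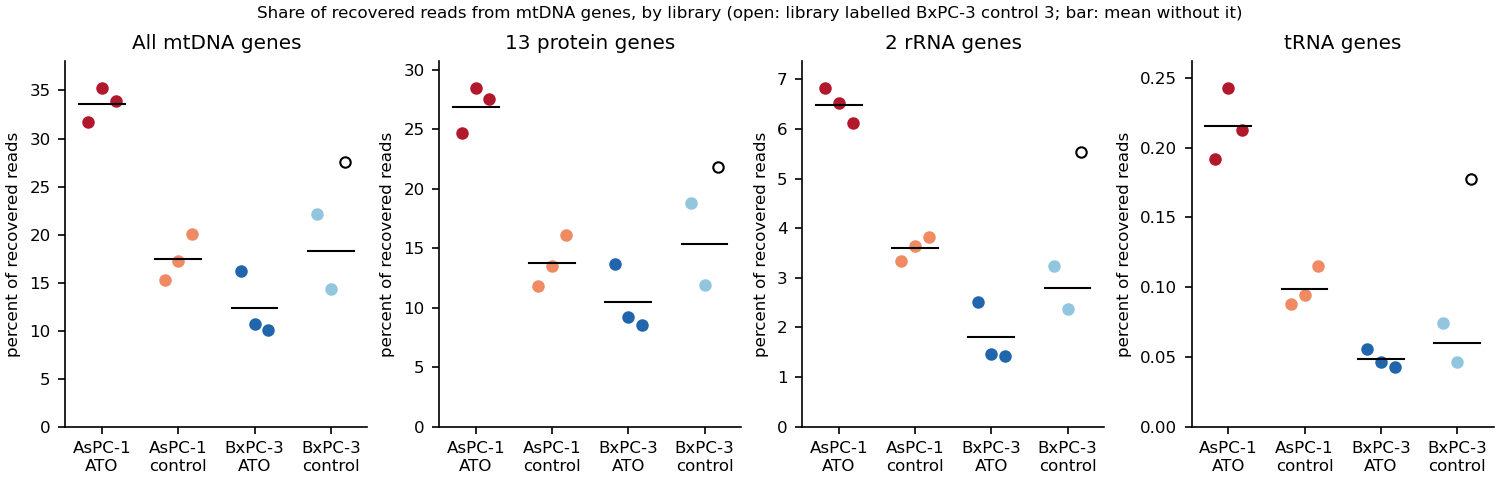
Percent of recovered reads from all mtDNA genes and from their protein, rRNA and tRNA genes (y axes) in each library (points), by group, with the mean as a bar and the library labelled BxPC-3 control 3 as an open point outside the mean. In all 4 panels every AsPC-1 ATO library lies above every AsPC-1 control library, while BxPC-3 ATO and control libraries overlap.

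Each class took part in the higher share of AsPC-1 tumors. Protein genes held 24.7, 28.5 and 27.6% of reads in AsPC-1 ATO libraries, against 11.8, 13.5 and 16.1% in AsPC-1 control libraries. The 2 rRNA genes held 6.82, 6.53 and 6.11%, against 3.34, 3.63 and 3.82%, and the listed tRNA genes 0.191, 0.242 and 0.212%, against 0.0880, 0.0941 and 0.115%, in the same order of groups. The ratio of the ATO to the control mean was 1.95 for protein, 1.80 for rRNA and 2.18 for tRNA genes. In none of the classes did the AsPC-1 groups overlap. In BxPC-3 tumors protein genes held 13.7, 9.20 and 8.57% in ATO libraries, against 18.8 and 11.95% in control libraries. The BxPC-3 rRNA share was 2.52, 1.48 and 1.43% in ATO libraries, against 3.23 and 2.37% in control libraries. The ratio of means was 0.681 for protein, 0.646 for rRNA and 0.804 for tRNA genes, and the groups overlapped in each class. For tRNA genes the mean difference in BxPC-3 tumors was -0.0118 points with both controls and 0.00185 points without control replicate 1.

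By strand, the genes read from the heavy-strand promoter and those read from the light-strand promoter had close ratios within AsPC-1 tumors. Heavy-strand genes held 32.7% ± 1.74 in AsPC-1 ATO libraries and 17.02% ± 2.36 in AsPC-1 control libraries (SD, n = 3 each). Light-strand genes, which are MT-ND6 and 8 tRNA genes, held 0.895% ± 0.0630 in AsPC-1 ATO libraries and 0.474% ± 0.0659 in AsPC-1 control libraries. The ratios of means were 1.92 for the heavy and 1.89 for the light strand. In BxPC-3 tumors they were 0.678 and 0.588, with overlapping groups on both strands. Whether the libraries kept strand is not stated, so reads of a light-strand gene and of the heavy-strand transcript opposite it cannot be told apart.

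Among the complexes, the share of reads in AsPC-1 tumors was 1.81 to 2.00 times as high with ATO. Complex IV held 12.8% ± 1.32 in AsPC-1 ATO libraries and 6.39% ± 1.11 in AsPC-1 control libraries (SD, n = 3 each). Complex I, with 7 mtDNA-encoded subunits, held 10.9% ± 0.542 in AsPC-1 ATO libraries and 5.70% ± 0.760 in AsPC-1 control libraries. Complex III held 1.61% ± 0.106 in AsPC-1 ATO libraries and 0.829% ± 0.153 in AsPC-1 control libraries, and complex V held 1.59% ± 0.0244 in AsPC-1 ATO libraries and 0.879% ± 0.169 in AsPC-1 control libraries. None of the 4 complexes overlapped between AsPC-1 ATO and control libraries. In BxPC-3 tumors the ratio of means was 0.664 for complex I, 0.619 for complex III, 0.710 for complex IV and 0.617 for complex V. Complex V was the 1 complex whose BxPC-3 groups did not overlap, at 0.795, 0.649 and 0.535% in ATO libraries, against 1.33 and 0.812% in control libraries. The gap was narrow, and in FPKM both complex V genes overlapped, as did their sum as a percent of the protein-gene FPKM. The share difference of -0.409 points was -0.152 without control replicate 1 and -0.666 without control replicate 2.

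Complex I passes electrons from NADH to ubiquinone and pumps protons. MT-ND1 (ENSG00000198888), which lines the ubiquinone site, had 17917, 22569 and 19884 FPKM in AsPC-1 ATO libraries, against 6104, 6888 and 8251 FPKM in AsPC-1 control libraries. MT-ND1 in BxPC-3 tumors had 3341, 4551 and 2939 FPKM in BxPC-3 ATO libraries, against 5356 and 2746 FPKM in BxPC-3 control libraries. AsPC-1 groups stood apart by a ratio of means of 2.84, the largest of the 13 protein genes, while in BxPC-3 tumors the 3 ATO libraries lay between the controls. MT-ND2 (ENSG00000198763), one of the proton-pumping subunits, had 15230.1, 19152 and 17664 FPKM in AsPC-1 ATO libraries, against 6164, 6601 and 8044 FPKM in AsPC-1 control libraries. MT-ND2 in BxPC-3 tumors had 4522, 4224 and 2565 FPKM in BxPC-3 ATO libraries, against 6220.2 and 3206 FPKM in BxPC-3 control libraries. Here again the AsPC-1 groups did not overlap, and in BxPC-3 tumors ATO replicates 1 and 2 lay between the controls and ATO replicate 3 below both. MT-ND3 (ENSG00000198840), a small subunit near the joint of the membrane arm and the matrix arm, had 14059.8, 16797 and 13956 FPKM in AsPC-1 ATO libraries, against 5641, 6407 and 7218 FPKM in AsPC-1 control libraries. MT-ND3 in BxPC-3 tumors had 4251, 2569.7 and 2075 FPKM in BxPC-3 ATO libraries, against 7485 and 3779.6 FPKM in BxPC-3 control libraries. BxPC-3 ATO replicate 1 lay between the controls, and the other two ATO libraries lay below both.

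MT-ND4L (ENSG00000212907) and MT-ND4 (ENSG00000198886) are neighbours on 1 bicistronic transcript and overlap in sequence, and how the authors counted shared reads is not given. MT-ND4L had 40955, 44025 and 51153 FPKM in AsPC-1 ATO libraries, against 20594, 17899 and 22652 FPKM in AsPC-1 control libraries. MT-ND4L in BxPC-3 tumors had 18541, 7864 and 9909.8 FPKM in BxPC-3 ATO libraries, against 25138 and 15148 FPKM in BxPC-3 control libraries. The MT-ND4L level was 1.62 to 2.36 times that of MT-ND4 in the 11 libraries. MT-ND4, another proton-pumping subunit, had 21999.8, 25217 and 24020.1 FPKM in AsPC-1 ATO libraries, against 8710.1, 9659 and 12509 FPKM in AsPC-1 control libraries. MT-ND4 in BxPC-3 tumors had 9236, 4844 and 4572 FPKM in BxPC-3 ATO libraries, against 13893 and 8204 FPKM in BxPC-3 control libraries. For both genes ATO replicate 1 of BxPC-3 lay between the controls and the other two ATO libraries below both. MT-ND5 (ENSG00000198786), the proton-pumping subunit at the far end of the membrane arm, followed the same pattern. It had 11613, 16502 and 14881 FPKM in AsPC-1 ATO libraries, against 4842, 5678 and 6399 FPKM in AsPC-1 control libraries. MT-ND5 in BxPC-3 tumors had 4681, 1895 and 2214 FPKM in BxPC-3 ATO libraries, against 6723 and 3866 FPKM in BxPC-3 control libraries. MT-ND6 (ENSG00000198695) is the 1 protein gene read from the light-strand promoter. Its values were 13444, 16860.2 and 14889 FPKM in AsPC-1 ATO libraries, against 5356, 6792 and 7251 FPKM in AsPC-1 control libraries. MT-ND6 in BxPC-3 tumors had 4188, 2030.4 and 2154 FPKM in BxPC-3 ATO libraries, against 7091 and 3809 FPKM in BxPC-3 control libraries. Its BxPC-3 ratio of means, 0.512, was the lowest of the 13 protein genes, with ATO replicate 1 between the controls.

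MT-CYB (ENSG00000198727) encodes cytochrome b, the mtDNA-encoded subunit of complex III, which passes electrons from ubiquinol to cytochrome c. It had 13955, 17895 and 15879 FPKM in AsPC-1 ATO libraries, against 5232, 6209.9 and 7728 FPKM in AsPC-1 control libraries. MT-CYB in BxPC-3 tumors had 6711, 4193 and 3496 FPKM in BxPC-3 ATO libraries, against 10666 and 6045 FPKM in BxPC-3 control libraries. AsPC-1 groups did not overlap, and BxPC-3 ATO replicate 1 again lay between the controls.

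Complex IV, cytochrome c oxidase, reduces oxygen to water. MT-CO1 (ENSG00000198804), its catalytic subunit, had 45433, 64223 and 58589.7 FPKM in AsPC-1 ATO libraries, against 17983, 22063 and 25309 FPKM in AsPC-1 control libraries. MT-CO1 in BxPC-3 tumors had 23045, 11769 and 12922 FPKM in BxPC-3 ATO libraries, against 30714 and 18959 FPKM in BxPC-3 control libraries. ATO replicate 1 of BxPC-3 was above control replicate 2, and the other two were below it. MT-CO2 (ENSG00000198712), which takes electrons from cytochrome c, had 27586, 33846 and 32383 FPKM in AsPC-1 ATO libraries, against 10608, 11550.2 and 15737 FPKM in AsPC-1 control libraries. MT-CO2 in BxPC-3 tumors had 12309, 8599.7 and 9812 FPKM in BxPC-3 ATO libraries, against 20519 and 10985 FPKM in BxPC-3 control libraries. MT-CO3 (ENSG00000198938), a structural core subunit, followed the same split of libraries in AsPC-1 tumors but not in BxPC-3 tumors, where 2 ATO libraries were above control replicate 2. Its values were 38504, 52895 and 46963 FPKM in AsPC-1 ATO libraries, against 13646, 18242 and 21544 FPKM in AsPC-1 control libraries. MT-CO3 in BxPC-3 tumors had 15814, 13104 and 9403 FPKM in BxPC-3 ATO libraries, against 22978 and 12675 FPKM in BxPC-3 control libraries.

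Complex V makes ATP from the proton gradient. MT-ATP6 (ENSG00000198899), the proton channel subunit, had 22962, 26267 and 24856 FPKM in AsPC-1 ATO libraries, against 9082, 10162 and 13235 FPKM in AsPC-1 control libraries. MT-ATP6 in BxPC-3 tumors had 8789, 6636 and 5396 FPKM in BxPC-3 ATO libraries, against 15592 and 8681 FPKM in BxPC-3 control libraries. MT-ATP8 (ENSG00000228253), a small stalk subunit whose reading frame overlaps MT-ATP6 on 1 transcript, was the lowest of the 13 protein genes in each library. It had 3982, 5755 and 4792 FPKM in AsPC-1 ATO libraries, against 1061, 1891 and 2254 FPKM in AsPC-1 control libraries. MT-ATP8 in BxPC-3 tumors had 1611, 979 and 1081 FPKM in BxPC-3 ATO libraries, against 2882 and 1603 FPKM in BxPC-3 control libraries. The MT-ATP8 level was 0.117 to 0.219 times that of MT-ATP6 in the 11 libraries, and how reads in the overlap were counted is not given. For both genes the AsPC-1 groups did not overlap, while BxPC-3 ATO replicate 1 was above control replicate 2 by a small margin and the other two ATO libraries were below both controls.

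**Figure D2:**
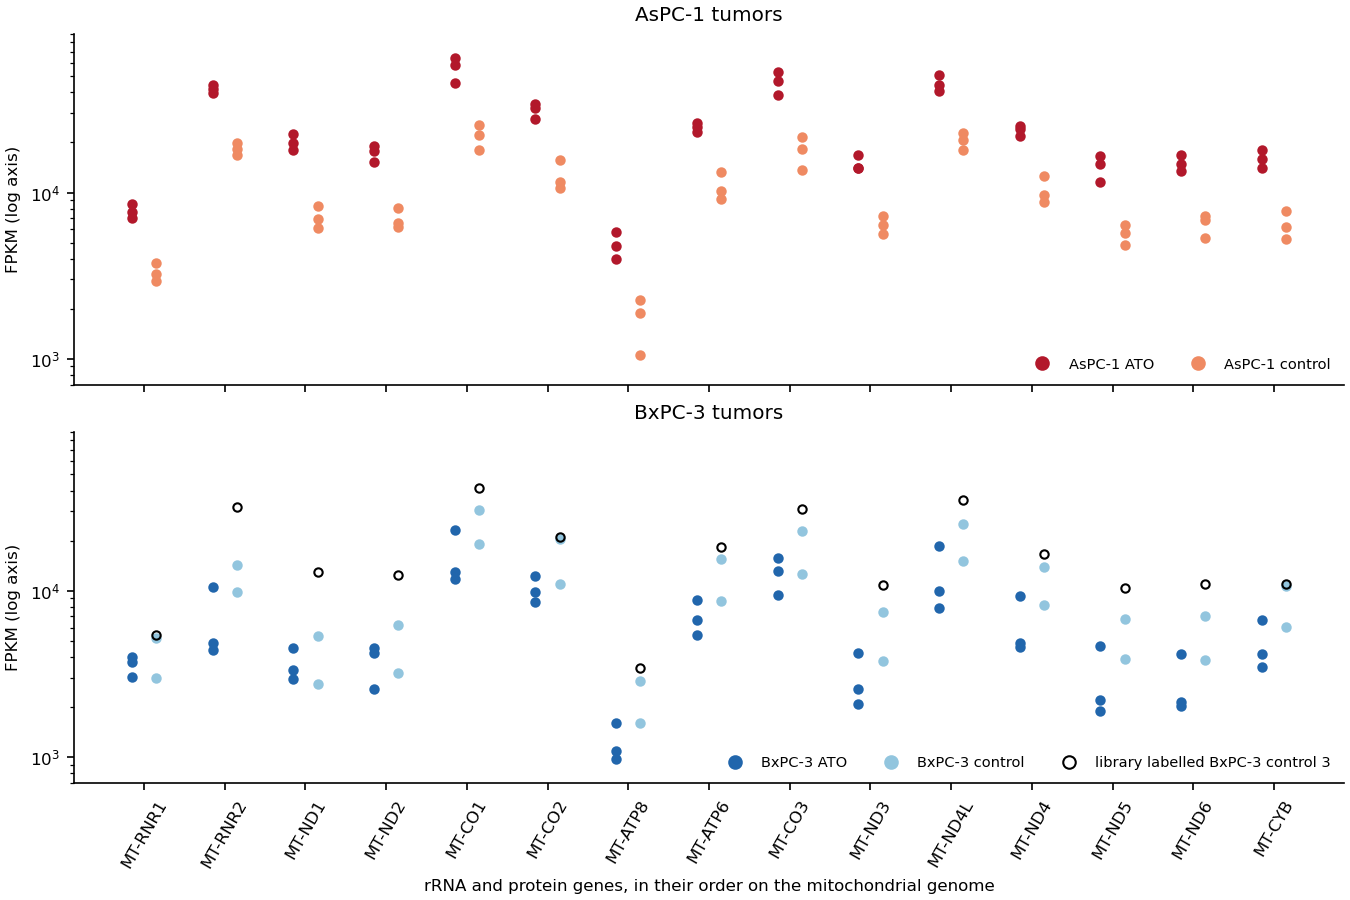
FPKM on a log axis of the 2 rRNA and 13 protein genes, in their order along the mitochondrial genome, with 1 point per library, AsPC-1 tumors above and BxPC-3 tumors below. AsPC-1 ATO points lie above AsPC-1 control points for all 15 genes, while in BxPC-3 tumors the groups interleave, and the library labelled BxPC-3 control 3 (open) has 12995 FPKM of MT-ND1, above the 5 other BxPC-3 libraries.

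MT-RNR1 (ENSG00000211459) and MT-RNR2 (ENSG00000210082) encode the rRNAs of the small and the large subunit of the mitochondrial ribosome and lie next to each other, with the valine tRNA gene MT-TV between them. MT-RNR1 had 7058, 8555 and 7664 FPKM in AsPC-1 ATO libraries, against 2953, 3779 and 3257 FPKM in AsPC-1 control libraries. MT-RNR1 in BxPC-3 tumors had 3732, 4022 and 3035 FPKM in BxPC-3 ATO libraries, against 5229.6 and 2981 FPKM in BxPC-3 control libraries. The AsPC-1 groups did not overlap, and the 3 BxPC-3 ATO libraries lay between the 2 controls. MT-RNR2 had 41775, 44404 and 39459 FPKM in AsPC-1 ATO libraries, against 16732, 18215 and 19795 FPKM in AsPC-1 control libraries. MT-RNR2 in BxPC-3 tumors had 10567, 4427 and 4852 FPKM in BxPC-3 ATO libraries, against 14354 and 9854 FPKM in BxPC-3 control libraries. In BxPC-3 tumors ATO replicate 1 of MT-RNR2 lay between the controls, and ATO replicates 2 and 3 lay below both. Copies of mtDNA in the nuclear genome share sequence with these genes, and how the authors placed such reads is not given.

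In limma's test of AsPC-1 ATO against control, 36 of 36 listed genes had a higher level with ATO, against 62.1% of all 15287 genes tested, and under quantile normalization 30 were higher, 5 lower and MT-CO3 at 0. On the log2(FPKM + 1) scale the median fold change was 1.37 for the members and 0.12 for all genes tested, so the members' median was 1.25 above that of all genes. No gene of the 15287 and none of the members passed an adjusted p of 0.05 after Benjamini-Hochberg adjustment, with a smallest adjusted p of 0.0548 among members. At an adjusted p under 0.10, a looser limit, 29 of 36 members were counted, against 1.07% of all genes. An unadjusted p under 0.05 with a higher level was reached by 34 of 36, against 15% of all genes, and all ATO libraries were above all control libraries in 33 of 36, against 17.4%. The 3 with overlap were the tRNA genes MT-TQ, MT-TW and MT-TA. In limma without the filter on low values, 18 of 36 members reached an unadjusted p under 0.05 and 0 an adjusted p under 0.10. Under quantile normalization these counts were 17 and 10 of 36. Over all genes, 3901 of 26820 and 3097 of 15287 reached an unadjusted p under 0.05 in these fits, in either direction. The count at 0.10 was 0 without control replicate 1, control replicate 2, ATO replicate 2 or ATO replicate 3. It was 17 without control replicate 3 and 34 without ATO replicate 1. Passing 0.10 was counted over all genes only for the 1.07% given above. Over all genes, 2581 of 14920 reached an unadjusted p under 0.05 in limma without control replicate 3, in either direction. These numbers were 5007 of 14902 without ATO replicate 1, 1191 of 14613 without ATO replicate 2 and 3210 of 15287 with all libraries. Members past 0.05 numbered 28 of 35 when genes of at least 5 FPKM were tested, against 77 of all 7422 genes. In limma's voom on recovered reads they numbered 10 of 33, against 19 of all 15749 genes.

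Among AsPC-1 protein genes the fold changes were close to each other. They ran from 1.16 ± 0.21 (SE) for MT-ND4L to 1.53 ± 0.30 for MT-ATP8, with adjusted p values in limma of 0.0651 to 0.0963 over the 13 genes. MT-ND1, at 1.51 ± 0.21, had the adjusted p of 0.0651. The rRNA genes were at 1.22 ± 0.19 for MT-RNR1 and 1.20 ± 0.19 for MT-RNR2. Medians by complex were 1.23 for complex I, 1.33 for complex III, 1.36 for complex IV and 1.37 for complex V. By strand, the median was 1.36 over 27 heavy-strand genes and 1.44 over 9 light-strand genes. tRNA genes had a median of 1.48 over 21 genes.

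In BxPC-3 tumors 31 of the 33 genes tested had a lower mean log level with ATO and 2 had a higher one, MT-TV and MT-TM, against 51.2% lower among all 14633 genes tested. Under quantile normalization 23 were lower and 10 higher. The members' median log2 fold change was -0.75, against -0.0067 for all genes. Without control replicate 1 the median was -0.34, with 24 lower and 9 higher, and without control replicate 2 it was -1.15, with 33 lower and 0 higher. Without ATO replicate 2 it was -0.48, with 31 lower and 2 higher. No member passed an adjusted p of 0.05 in limma, and the smallest adjusted p was 0.883. An unadjusted p under 0.05 with a lower level was reached by 3 members, MT-TI, MT-TG and MT-TL2, against 2.58% of all genes. Leaving out ATO replicate 1 made that count 11, while it stayed at 3 when either other ATO library was left out. Over all genes, 3262 of 13700 reached an unadjusted p under 0.05 in limma without ATO replicate 1, in either direction. These numbers were 450 of 14247 without ATO replicate 2, 371 of 14204 without ATO replicate 3 and 758 of 14633 with all 3. The rise without ATO replicate 1 was thus not confined to the members. In voom on recovered reads 12 of 26 members reached an unadjusted p under 0.05, against 918 of all 16330 genes, and 0 passed an adjusted 0.05 there as well. All 3 ATO libraries were below both controls in 6 of 33 members, against 9.34% of all genes, and none of the 6 was a protein or rRNA gene.

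The BxPC-3 fold changes of the protein and rRNA genes differed in size, with wide SEs. MT-ND1 was at -0.11 ± 0.44 (SE), MT-RNR1 at -0.14 ± 0.40 and MT-ND2 at -0.29 ± 0.48. The lowest values were those of MT-ND6 at -0.98 ± 0.50, MT-RNR2 at -0.96 ± 0.56, MT-ND5 at -0.92 ± 0.53 and MT-ND3 at -0.91 ± 0.50. MT-RNR1 and MT-RNR2 lie next to each other, so these sizes did not simply follow gene order. Medians were -0.86 for complex I, -0.80 for complex III, -0.57 for complex IV and -0.81 for complex V. The SE of each protein gene was 0.39 to 0.63, and no difference between genes was tested. Without control replicate 1, MT-ND1, MT-ND2 and MT-RNR1 were higher with ATO instead, at 0.37, 0.19 and 0.26.

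**Figure D3:**
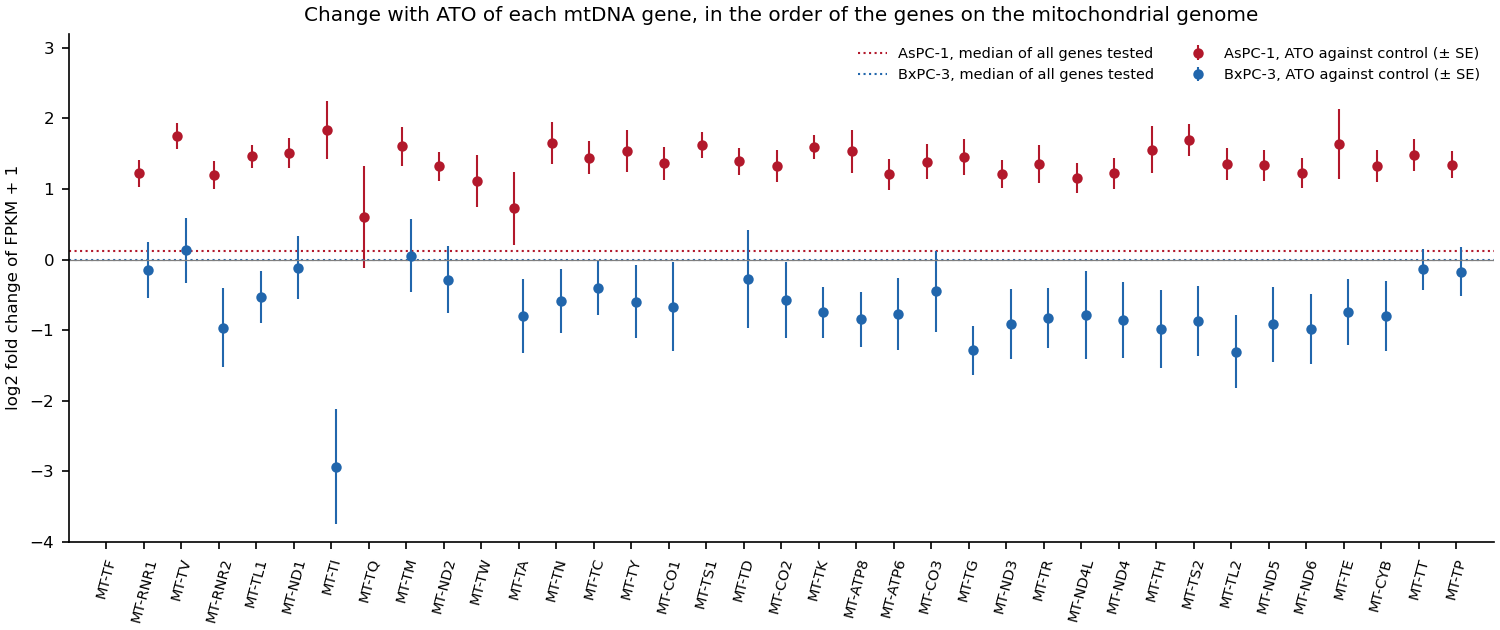
Log2 fold change of FPKM + 1, ATO against control, ± SE from limma, for each mtDNA gene in its order along the mitochondrial genome, in AsPC-1 (red) and BxPC-3 (blue) tumors, with dotted lines at the median of all genes tested. AsPC-1 points lie above 0 for 36 of 36 genes and BxPC-3 points lie below 0 for 31 of 33, and under quantile normalization 30 of 36 lie above 0 in AsPC-1 and 23 of 33 below 0 in BxPC-3.

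The difference between the lines in the ATO change was tested as the line by treatment term in 1 limma model of 11 libraries, in which a constant difference in scale between the tables is taken up by the line. All 34 members tested had a positive term, meaning a more positive change in AsPC-1 tumors, against 57.9% of 16600 genes, and under quantile normalization 25 were positive and 9 negative. The median term was 2.05 for the members and 0.09 for all genes, a distance of 1.96. An unadjusted p under 0.05 with a positive term was reached by 32 of 34, against 11.2% of all genes. In limma without the filter on low values it was reached by 18 of 34, and under quantile normalization by 15 of 34. Over all genes, 3039 of 23445 and 2614 of 16600 reached it in these fits, in either direction. None passed an adjusted p of 0.05 in limma, the smallest being 0.109, and none passed in voom on recovered reads, where the smallest adjusted p was 0.0727. Leaving out BxPC-3 ATO replicate 1, 18 of 34 passed, against 493 of all 16336 genes. That library lay between the controls for each of the 13 protein genes. The median term without it was 2.32, against 2.05 with it. Over all genes, 4265 of 16336 reached an unadjusted p under 0.05 in limma without it, against 2577 of 16600 with it, in either direction. Why more genes passed without it was not tested, and the count is no support for the term. Leaving out any other ATO library or any AsPC-1 control, none passed. The median term was 1.61 without BxPC-3 control replicate 1 and 2.45 without BxPC-3 control replicate 2. MT-ATP8 had the largest term of the protein genes, at 2.38 ± 0.53 (SE, adjusted p in limma 0.161), and MT-ND2 the smallest, at 1.61 ± 0.53 (adjusted p 0.242). MT-RNR2 was at 2.16 ± 0.62 and MT-RNR1 at 1.37 ± 0.43.

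The tRNA genes bring amino acids to the mitochondrial ribosome. Mature tRNAs are short and have no poly(A) tail, so an mRNA kit is not made to capture them. In AsPC-1 ATO replicate 1 their FPKM ran from 2.83 for MT-TA, the alanine tRNA, to 9078 for MT-TN. The highest values in every library belonged to MT-TN, MT-TC and MT-TP, the tRNAs for asparagine, cysteine and proline, which are all read from the light-strand promoter. Together these 3 held 84.0% to 92.6% of the tRNA reads in the 11 libraries. Without strand, reads of these genes cannot be told apart from heavy-strand precursor RNA that runs through the same positions.

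MT-TN had 9078, 12276 and 9728 FPKM in AsPC-1 ATO libraries, against 2125, 3587 and 4595 FPKM in AsPC-1 control libraries. MT-TN in BxPC-3 tumors had 1735, 991 and 899.7 FPKM in BxPC-3 ATO libraries, against 2491 and 1204 FPKM in BxPC-3 control libraries. Every AsPC-1 ATO library of MT-TN was above every AsPC-1 control library, and BxPC-3 groups overlapped. MT-TC had 8333, 13895 and 10135 FPKM in AsPC-1 ATO libraries, against 4046, 3423 and 4198 FPKM in AsPC-1 control libraries. MT-TC in BxPC-3 tumors had 1431, 859 and 809 FPKM in BxPC-3 ATO libraries, against 1702 and 1024 FPKM in BxPC-3 control libraries, again without overlap in AsPC-1 and with overlap in BxPC-3 tumors. MT-TP had 7589.6, 9713 and 9245 FPKM in AsPC-1 ATO libraries, against 3288, 3296 and 3850.4 FPKM in AsPC-1 control libraries. MT-TP in BxPC-3 tumors had 2459.6, 2714 and 2258 FPKM in BxPC-3 ATO libraries, against 3502 and 2203 FPKM in BxPC-3 control libraries. The fold change of MT-TP in BxPC-3 tumors, -0.17 ± 0.34 (SE), was nearer to 0 than those of MT-TN and MT-TC, -0.58 ± 0.45 and -0.40 ± 0.38, and no difference between these genes was tested. Across the other listed tRNA genes in AsPC-1 tumors, MT-TK, the lysine tRNA, had the smallest adjusted p in limma together with MT-TV. It had 50.2, 65.1 and 59.6 FPKM in AsPC-1 ATO libraries, against 17.02, 18.4 and 20.3 FPKM in AsPC-1 control libraries, a fold change of 1.59 ± 0.16 with an adjusted p of 0.0548.

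The 6 BxPC-3 tRNA genes with all ATO libraries below both controls were MT-TI, MT-TA, MT-TG, MT-TR, MT-TS2 and MT-TL2. MT-TG, the glycine tRNA, had 58.6, 36.1 and 46.7 FPKM in BxPC-3 ATO libraries, against 164 and 79.5 FPKM in BxPC-3 control libraries, a fold change of -1.28 ± 0.35 (SE). MT-TL2, the leucine tRNA of the CUN codons, had 35.4, 11.97 and 38.8 FPKM in BxPC-3 ATO libraries, against 82.1 and 50.9 FPKM in BxPC-3 control libraries, at -1.30 ± 0.52. MT-TR, the arginine tRNA, had 245, 98.1 and 203 FPKM in BxPC-3 ATO libraries, against 367 and 249 FPKM in BxPC-3 control libraries. MT-TS2, the serine tRNA of the AGY codons, had 63.9, 20.8 and 61.01 FPKM in BxPC-3 ATO libraries, against 93.4 and 68.7 FPKM in BxPC-3 control libraries. The 5 of these other than MT-TA had all AsPC-1 ATO libraries above all AsPC-1 control libraries, as 33 of all 36 members tested there did. MT-TI, the isoleucine tRNA, rested on few reads, with 11, 0 and 3 reads in BxPC-3 ATO libraries, against 34 and 27 reads in BxPC-3 control libraries. The count of 0 in ATO replicate 2 allows up to 3 reads, or 2.05 FPKM. MT-TA had 0 reads in the same library, MT-TW had 0 in BxPC-3 ATO replicate 3 and MT-TQ had 0 in AsPC-1 control replicate 1, with the same floor of 3 reads. MT-TW was under the filter of 1 FPKM in at least 3 libraries and was not tested in BxPC-3 tumors.

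Of the other tRNA genes, MT-TS1, a serine tRNA listed for AsPC-1 tumors alone, had 143, 183 and 137 FPKM in AsPC-1 ATO libraries, against 54.5, 52.7 and 41.2 FPKM in AsPC-1 control libraries. MT-TH, the histidine tRNA, had 391, 928 and 887 FPKM in AsPC-1 ATO libraries, against 232, 198 and 273 FPKM in AsPC-1 control libraries. MT-TY, the tyrosine tRNA, had 833, 1091 and 1109 FPKM in AsPC-1 ATO libraries, against 216, 398 and 477 FPKM in AsPC-1 control libraries. These 3, and likewise MT-TV, MT-TL1, MT-TM, MT-TD, MT-TE and MT-TT, had no overlap between the AsPC-1 groups. In BxPC-3 tumors all of them that were listed overlapped between the groups. MT-TV and MT-TM, the valine and methionine tRNAs, which had the 2 fold changes above 0 there, rested on 2 to 6 and 8 to 28 reads per library.

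**Figure D4:**
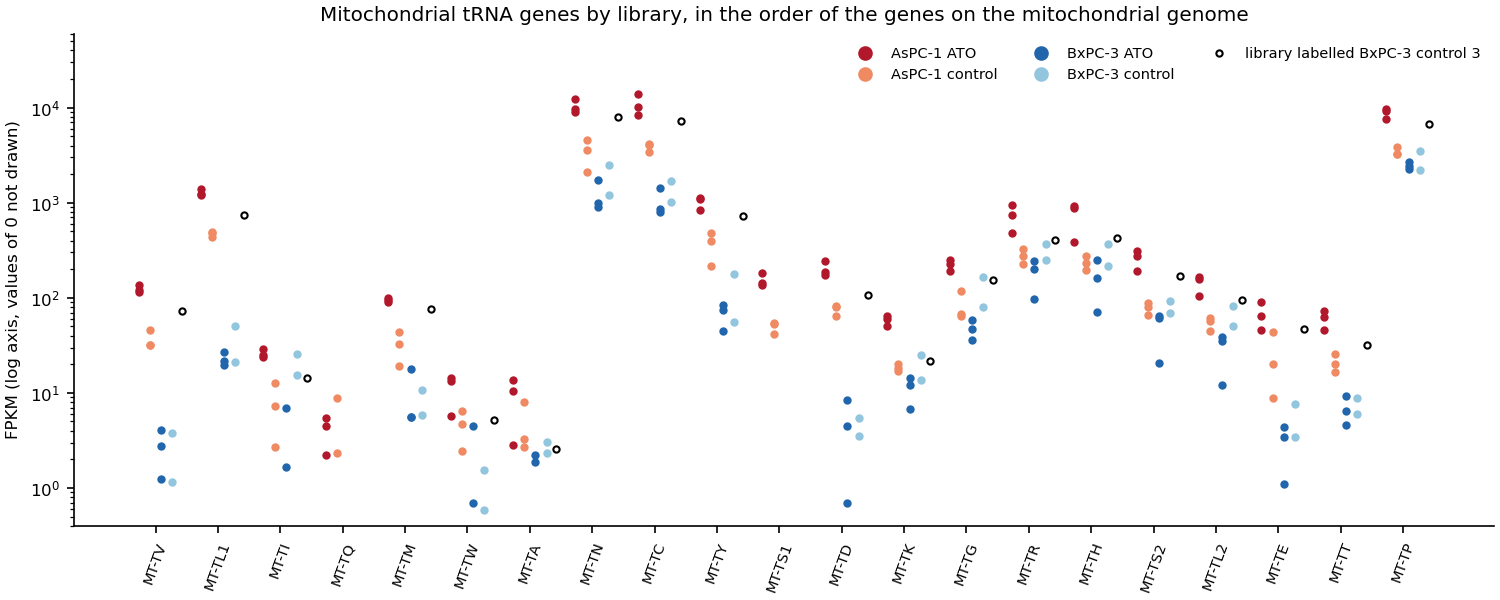
FPKM on a log axis of the listed mitochondrial tRNA genes, in their order along the mitochondrial genome, with 1 point per library and values of 0 not drawn. MT-TN, MT-TC and MT-TP are the highest in every library, and MT-TL1 lies between 434 and 1393 FPKM in AsPC-1 libraries and between 19.6 and 51.1 FPKM in the 5 BxPC-3 libraries.

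To compare the make-up of the mtDNA transcripts without the library constant, each FPKM was expressed as a percent of the summed FPKM of the 13 protein genes in the same library. In AsPC-1 tumors, of 36 genes, 33 overlapped between ATO and control libraries, 3 were above in all ATO libraries, namely MT-ND1, MT-TK and MT-TS2, and 0 were below. Among all genes tested 0.373% were above and 78.4% below by this measure, in which genes outside mtDNA move with the summed protein-gene FPKM. The members and all genes are therefore not compared like with like here. MT-ND1 made up 6.23, 6.23 and 5.85% in AsPC-1 ATO libraries, against 5.31, 5.30 and 5.22% in AsPC-1 control libraries. The ratio of MT-ND1 to MT-CYB was 1.28, 1.26 and 1.25, against 1.17, 1.11 and 1.07, for the same groups. As a sum, tRNA genes made up 10.6% ± 0.771 in AsPC-1 ATO libraries and 9.42% ± 0.224 in AsPC-1 control libraries (SD, n = 3 each), without overlap. The same held in BxPC-3 tumors, at 6.31% ± 0.707 in ATO libraries (SD, n = 3) and 5.21% ± 0.0360 in control libraries (n = 2).

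In BxPC-3 tumors 5 of 34 genes made up more in all ATO libraries, MT-ND2, MT-CO3, MT-RNR1, MT-TM and MT-TC, and 7 made up less, MT-ATP8, MT-ND3, MT-ND4, MT-ND6, MT-CYB, MT-TI and MT-TG. Among all genes tested 25.5% were above and 0.677% below. Genes outside mtDNA move with the summed protein-gene FPKM here too, so these percentages are not a like comparison for the members. Each of these sets holds genes of more than 1 class. MT-ND1 made up 2.85, 6.21 and 4.29% in BxPC-3 ATO libraries, against 3.06 and 2.75% in BxPC-3 control libraries, with ATO replicate 1 between the controls. MT-ND2 made up 3.86, 5.77 and 3.74%, against 3.55 and 3.22%, and MT-RNR1 3.19, 5.49 and 4.43%, against 2.98 and 2.99%. MT-ND6 and MT-CYB went the other way. MT-ND6 made up 3.58, 2.77 and 3.14% in ATO libraries, against 4.05 and 3.82% in control libraries. MT-CYB made up 5.73, 5.72 and 5.10%, against 6.09 and 6.06%.

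The ratio of the large to the small rRNA, MT-RNR2 over MT-RNR1, was 2.83, 1.10 and 1.60 in BxPC-3 ATO libraries, against 2.74 and 3.31 in BxPC-3 control libraries. In AsPC-1 tumors it was 5.92, 5.19 and 5.15 in ATO libraries, against 5.67, 4.82 and 6.08 in control libraries. Means were 5.42 ± 0.433 and 5.52 ± 0.641 in AsPC-1 ATO and control libraries (SD, n = 3 each), a difference smaller than either SD. The ratio of MT-ND1 to MT-CYB, genes near the start and the end of the heavy-strand transcript, was 0.498, 1.09 and 0.841 in BxPC-3 ATO libraries, against 0.502 and 0.454 in BxPC-3 control libraries. In both ratios ATO replicates 2 and 3 stood apart from the controls and ATO replicate 1 did not. The level of MT-ND6 over the mean of the 12 heavy-strand protein genes was 0.445, 0.342 and 0.389 in BxPC-3 ATO libraries, against 0.506 and 0.477 in BxPC-3 control libraries, without overlap. In AsPC-1 tumors it was 0.588, 0.586 and 0.550 in ATO libraries, against 0.586, 0.661 and 0.577 in control libraries, with overlap.

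By complex, complex IV made up 45.4% ± 1.60 of the protein-gene FPKM in BxPC-3 ATO libraries (SD, n = 3) and 42.5% ± 0.283 in BxPC-3 control libraries (n = 2), without overlap. Complex I made up 39.5% ± 1.91 and 40.95% ± 0.106 in BxPC-3 ATO and control libraries, with overlap. In AsPC-1 tumors complex IV made up 40.4% ± 1.48 in ATO libraries and 38.7% ± 1.74 in control libraries (SD, n = 3 each), with overlap, as for complexes I, III and V. Complex III, that is MT-CYB, made up 5.52% ± 0.363 in BxPC-3 ATO libraries and 6.07% ± 0.0162 in BxPC-3 control libraries, below without overlap.

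**Figure D5:**
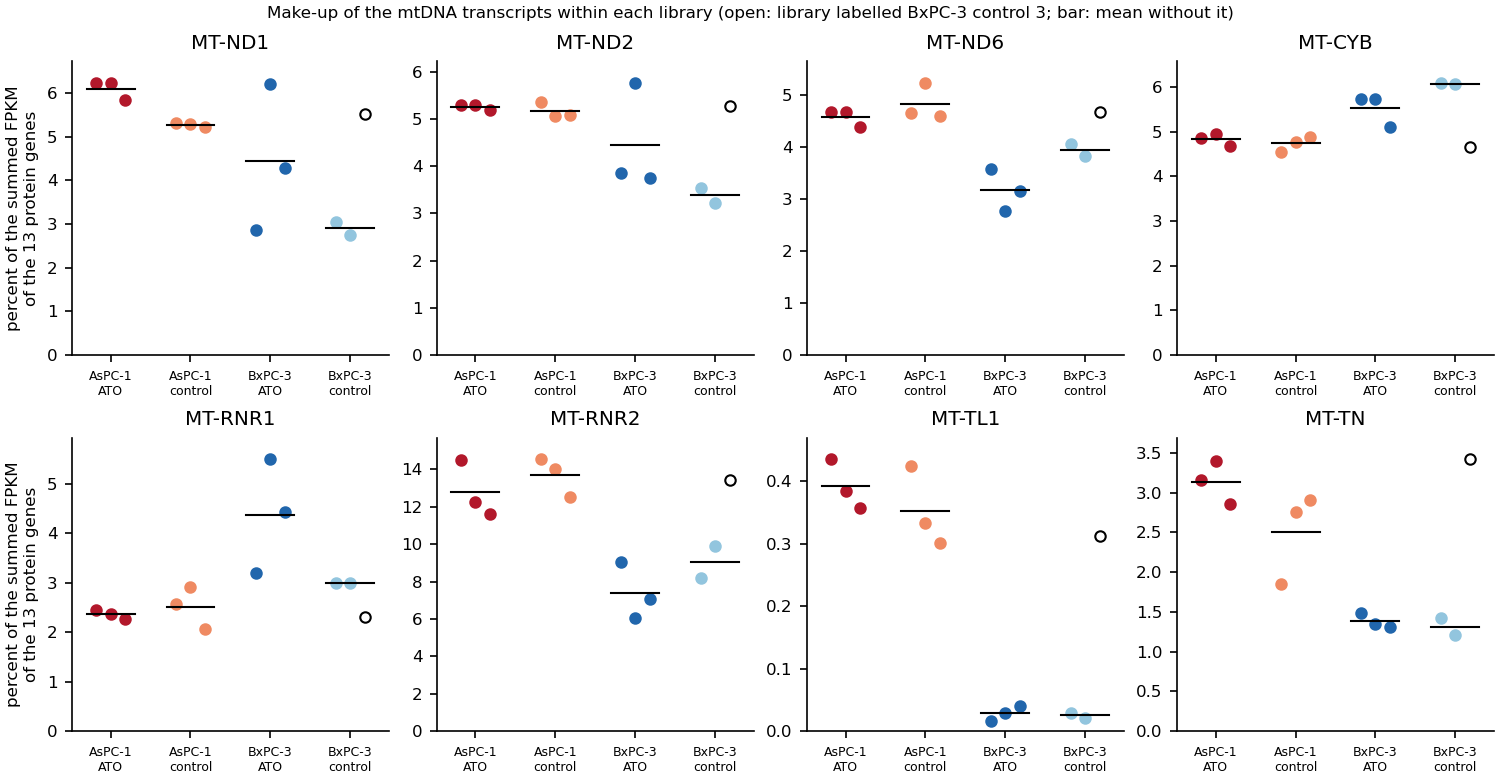
FPKM of 8 mtDNA genes as a percent of the summed FPKM of the 13 protein genes of the same library (y axes from 0), with 1 point per library, the group mean as a bar and the library labelled BxPC-3 control 3 as an open point. MT-RNR2, MT-ND6, MT-TL1 and MT-TN are higher and MT-RNR1 and MT-CYB lower in all 6 AsPC-1 libraries than in the 5 BxPC-3 libraries, and the open point lies within the AsPC-1 range for each of these but MT-TN, where it is above it.

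Set side by side as a description, since each line has its own table, 11 of 34 genes made up more in all 6 AsPC-1 libraries than in all 5 BxPC-3 libraries and 3 made up less. Among all 16600 genes tested 6.11% were above and 22.1% below. In this measure genes outside mtDNA depend on the summed protein-gene FPKM, so these percentages are not a like comparison for the members. The 3 lower in AsPC-1 were MT-CO2 at 8.88% to 9.95%, against 10.5% to 14.3% in BxPC-3 libraries, MT-CYB at 4.55% to 4.94%, against 5.10% to 6.09%, and MT-RNR1 at 2.06% to 2.91%, against 2.98% to 5.49%. MT-RNR2 was higher, at 11.6% to 14.5%, against 6.04% to 9.88% in BxPC-3 libraries. So were MT-ND5, at 4.04% to 4.56%, against 2.59% to 3.9998%, and MT-ND6, at 4.38% to 5.22%, against 2.77% to 4.05%.

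The other 8 genes higher in AsPC-1 were tRNA genes, and 3 of them differed by more than 10 times between the medians. MT-TD, the aspartate tRNA, had a median make-up 16.5 times as high in AsPC-1 as in BxPC-3 libraries, with 71 to 209 reads in AsPC-1 libraries and 1 to 15 reads in the 5 BxPC-3 libraries. For MT-TV the ratio was 15.5, with 28 to 143 reads in AsPC-1 and 2 to 6 reads in BxPC-3 libraries. For MT-TL1, the leucine tRNA of the UUR codons, it was 12.7, with 452 to 1443 reads in AsPC-1 and 34 to 73 reads in BxPC-3 libraries. The other leucine tRNA, MT-TL2, overlapped between the lines, with a ratio of medians of 0.874. MT-TE, MT-TY, MT-TM, MT-TC and MT-TN were 4.82, 4.62, 3.51, 2.51 and 2.13 times as high in AsPC-1 libraries. Neither the lines' own mtDNA sequences nor the way short genes were counted was examined.

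The make-up of the library labelled BxPC-3 control 3 was set beside both lines. Of the 14 genes whose make-up did not overlap between the lines, it lay within the AsPC-1 range for 12 and within the BxPC-3 range for 0, and the 2 outside the AsPC-1 range were MT-TN and MT-TD. Over all 34 genes it lay within the AsPC-1 range for 30 and within the BxPC-3 range for 18. That library was left out for its AsPC-1 profile in these same data, so these counts describe it and are no separate support. For MT-TL1 it had 0.312%, against 0.301% to 0.435% in AsPC-1 and 0.0168% to 0.0395% in the 5 BxPC-3 libraries. With that library kept among the BxPC-3 controls, the median log2 fold change of 34 members in BxPC-3 tumors was -1.07, against -0.75 for 33 members without it, and 0 passed an adjusted p of 0.05 in limma in either fit.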

How the data were processed

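The 37 members, the classes and the lists were chosen with earlier results of these data known, and groups and replicate numbers come from sample titles. Per the labels' protocols, total RNA was turned into libraries by a SMARTer kit for mRNA. The submitters' processing notes list GRCm38, mm10 and hg38 as builds and give no role to any. Which aligner, annotation and counter were used is not given in the sources at hand. For each line the authors deposited a table of values without a stated unit, taken as FPKM because every value is a whole read number times a constant of the library over a whole gene length. A space inside 1 number, MT-CO1 in BxPC-3 control 1, was removed. Read numbers and lengths (up to 400000 bases) were recovered in Python 3.11.15 with pandas 2.3.3, and all genes came out whole within 0.05 reads. On simulated tables with 7055 genes for AsPC-1 and 7289 for BxPC-3, the recovery returned the right length for 99.9% and 99.8%.

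Tests used limma 3.58.1 (R 4.3.3), with moderated variances following a trend, on log2(FPKM + 1), separately by line and then jointly for the line by treatment term. Genes entered when at least 3 libraries had 1 FPKM or more. P-values were adjusted over all genes entered by the Benjamini-Hochberg method, with a threshold of 0.05. The added 1 FPKM understates changes of low genes. Protein and rRNA genes are given with each library's value, and tRNA genes by values, ranges or counts. Shares, ratios and make-up were described without a test. Alternatives were a pseudocount of 0.1, no filter, a 5 FPKM filter, quantile normalization, no trend, voom on recovered reads, a replicate block, other denominators, and single libraries left out or kept. Voom with BxPC-3 control 3 kept, and the denominator of reads outside mtDNA genes, were added after the data were seen. Nuclear gene lists and markers of other cell types were not analysed here.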

Additional observations from a re-analysis of the deposited data

Results flagged for a closer look

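The tRNA genes MT-TI, MT-TG, MT-TR, MT-TS2 and MT-TL2 had every ATO library above every control library in AsPC-1 tumors and every ATO library below both controls in BxPC-3 tumors. Taking each line alone, 17.4% of all genes tested were above in this way in AsPC-1 and 9.34% below in BxPC-3 tumors. These tRNA genes were picked for the pattern, and all 34 members tested had a positive line by treatment term, with a median of 2.05. The difference of the log2 fold changes, AsPC-1 minus BxPC-3, was 4.77 ± 0.97 (SE) for MT-TI, with an adjusted p of 0.145 in limma's line by treatment term. It was 2.74 ± 0.46 for MT-TG (adjusted p 0.109), 2.18 ± 0.53 for MT-TR (0.186), 2.56 ± 0.56 for MT-TS2 (0.157) and 2.65 ± 0.58 for MT-TL2 (0.158) in the same limma model. None passed the threshold of 0.05. MT-TI rests on 0 to 34 reads per library of BxPC-3 tumors, and with a pseudocount of 0.1 its difference was 6.24 (adjusted p 0.280 in limma).

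The library labelled BxPC-3 control 3, which enters no comparison, had 27.6% of its reads from mtDNA genes, with a 95% Wilson interval of 27.58% to 27.62% that covers counting error only. The share was above every other BxPC-3 library, at 16.2, 10.7 and 10.05% in ATO and 22.2 and 14.4% in control libraries. It lay between the AsPC-1 ATO libraries, at 31.7% to 35.2%, and the AsPC-1 control libraries, at 15.2% to 20.1%.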

How the results depend on the processing

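Members past an adjusted p of 0.05 in AsPC-1 tumors, 0 as reported, numbered 28 of 35 with the 5 FPKM filter, 10 of 33 with voom on recovered reads, 32 of 36 with the replicate block, and 33 of 33 with the replicate block and voom on recovered reads. Over all genes these fits called 77 of 7422, 19 of 15749, 1193 of 15287 and 3429 of 15749, against 0 of 15287 as reported. In limma with no filter on low values 0 of 36 members passed, with a smallest adjusted p of 0.158. Under quantile normalization 0 of 36 passed as well. For the line by treatment term, 0 became 20 of 32 with the replicate block and voom (80 of all 17380 genes), and 0 to 18 when single libraries were left out (0 to 493 genes). Same-numbered AsPC-1 libraries had correlations of deviations from the group means of 0.331, 0.1996 and 0.0814, and control replicate 3 correlated best with ATO replicate 2, at 0.214, so the numbers were not taken to pair samples. In BxPC-3 tumors the 2 same-numbered pairs had 0.146 and 0.0591, while ATO replicate 3 and control replicate 2 had 0.149. The deviations of 2 controls mirror each other, so these values say little on pairing. In BxPC-3 tumors 0 members passed with or without the block. With the block, BxPC-3 ATO replicate 3 has no same-numbered control, so the BxPC-3 change rests on the 2 same-numbered pairs only.

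The AsPC-1 share difference of 16.1 points was 22.4 with the denominator implied by the constant, 29.4 over the reads outside mtDNA genes, 13.2 without the 2 rRNA genes and 14.97 to 17.4 with single libraries left out. The BxPC-3 difference of -5.92 points ran from -9.81 to -2.03 with single libraries left out. The MT-RNR2 to MT-RNR1 difference was -2.11 in BxPC-3 tumors with control 3 kept, against -1.18 without it, and ran from -0.453 to 0.176 in AsPC-1 tumors with single libraries left out.

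Quantile normalization fixes the values at the top ranks, which mtDNA genes fill in every library, and so compresses their changes by construction. Under it the AsPC-1 log2 fold change was -0.0074 for MT-ND2, 0 for MT-CO3, -0.049 for MT-ND3, -0.10 for MT-ND4L, -0.062 for MT-ND6 and -0.21 for MT-RNR1. In BxPC-3 tumors it was 0.56 for MT-ND1, 0.30 for MT-ND2, 0.12 for MT-CO2, 0.012 for MT-ATP6, 0.11 for MT-CO3, 0.050 for MT-ND4, 0.34 for MT-RNR1 and 0.37 for MT-TP. The line by treatment term was -0.40 for MT-ND1, -0.25 for MT-ND2, -0.10 for MT-CO2, -0.019 for MT-ATP6, -0.080 for MT-CO3, -0.030 for MT-ND4L, -0.046 for MT-ND4, -0.65 for MT-RNR1 and -0.37 for MT-TP. With the replicate block, MT-ND1 in BxPC-3 tumors was 0.024. ATO replicate 3 has no same-numbered control in that fit and adds nothing, so the value equals that without ATO replicate 3.

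With single libraries left out, the BxPC-3 log2 fold changes ran from -0.59 to 0.37 for MT-ND1, -0.77 to 0.19 for MT-ND2, -0.55 to 0.26 for MT-RNR1 and -0.50 to 0.17 for MT-TP. The BxPC-3 tRNA share difference ran from -0.0255 to 0.00185 points, the AsPC-1 complex III make-up difference from -0.00928 to 0.160 points and the BxPC-3 rRNA make-up difference from -1.12 to 0.578 points. With control 3 kept, the BxPC-3 tRNA make-up difference was -0.733 points, against 1.10 without it. Of the single-gene, class and make-up values under the alternatives, 1298 kept their direction and stayed on the same side of the threshold or within 1 SD, 112 passed the threshold in the same direction, 33 moved by more than 1 SD and 33 turned direction. The cause of the changes outside quantile normalization was not tested. Depth limits the tRNA genes with few reads.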
